A study of Mus musculus with 12 samples.

Results

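The 41 genes described here act in DNA repair and were taken by symbol from the 24421 gene symbols of a mouse tumour RNA sequencing table. They fall into 6 classes: 10 base excision, 10 nucleotide excision, 10 Fanconi anaemia, 6 homologous recombination, 2 mismatch repair and 3 translesion synthesis genes. Total RNA had been sequenced in bulk from 12 murine 425-ICC tumours, which model intrahepatic cholangiocarcinoma, a bile duct cancer that arises within the liver. All tumours were taken after 8 days of treatment, in 4 groups of 3 libraries each. Combination tumours received GC together with dual ICB. GC tumours received GC alone, a chemotherapy given only by those letters and taken here to be gemcitabine with cisplatin. ICB tumours were given dual immune checkpoint blockade alone, which by the title of the series was directed at CTLA-4 and PD1. Control tumours received IgG, an antibody without a checkpoint target. The comparisons ask how each treatment, alone or together, left the RNA levels of the repair genes relative to Control and to each other.

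Cells remove DNA lesions by separate routes. Base excision repair cuts out single damaged bases, and nucleotide excision repair removes a short strand around a bulky lesion such as the adducts that platinum drugs leave between neighbouring bases. The Fanconi anaemia proteins open crosslinks between the strands, homologous recombination rebuilds broken or unhooked DNA from the sister copy, mismatch repair corrects replication errors, and translesion polymerases copy past lesions that remain. Many Fanconi and recombination genes are transcribed mainly in cycling cells, under E2F transcription factors.

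Levels were deposited as FPKM (fragments scaled to transcript length and to the mapped library), so values of different genes can be set side by side per length. A gene was tested where its mean over the 12 libraries was at least 1 FPKM, which held for 12765 genes and for 40 of the 41 repair genes. Differences are on the log2(FPKM + 1) scale, which understates changes of genes near 1 FPKM, and are given with their standard error. They come from a limma model of all 12 libraries, and a gene is said to have risen or fallen where its Benjamini-Hochberg adjusted p over all tested genes was under 0.05. Depth was not recovered from FPKM, so no counting intervals are given, and as no label ties libraries to animals, the p-values reflect only how these libraries vary. In bulk tissue, fewer cells of a type and less RNA per cell cannot be told apart.

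The libraries differed in the tissue they held. The summed level of 20 hepatocyte genes was 0.753% to 19.4% of all FPKM in Combination, 0.153% to 1.38% in GC, 0.0917% to 0.481% in ICB and 0.00334% to 0.0196% in Control libraries. Small intestinal genes were high in Combination replicate 1 and skeletal muscle genes in GC replicate 2 and Control replicate 2. Of 10 biliary and tumour markers, Krt19 was listed at 0 in Control replicates 2 and 3, and Epcam at 0 in Control replicate 3 and ICB replicate 1. Summed, the 10 markers were 0.111% to 1.43% of all FPKM in Combination, 0.406% to 0.848% in GC, 0.436% to 0.709% in ICB and 0.292% to 0.450% in Control libraries. At 0 were 1 of the 10 in Control replicate 2, 3 in Control replicate 3, 2 in ICB replicate 1 and 1 in Combination replicate 1. The mean of 20 mitosis genes was lowest in Combination replicate 2, at 2.11 on the log2(FPKM + 1) scale, and next lowest in Control replicate 1, at 2.48, against 3.35 to 4.74 in the other 10 libraries.

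The promoters of 4 genes are shown because Apex1 passed the test and because Fancg, Msh6 and Lig1 carry the E2F letters that mark many genes of the replicating cell. Each runs from 250 bases before the gene's start to 50 bases after it, on the gene's own strand, from RefSeq (GRCm38.p6). Apex1 lies at chr14:50924699-50924998 (plus strand), Fancg at chr4:43010252-43010551 (minus strand), Msh6 at chr17:87974800-87975099 (plus strand), and Lig1 at chr7:13278576-13278875 (plus strand, the one of 3 listed starts that held the letters). Capitals mark CACGTG in Apex1, TTTCCCGC in Fancg and Msh6, and GCGCGAAA, the reverse complement of TTTCGCGC, in Lig1.
Apex1: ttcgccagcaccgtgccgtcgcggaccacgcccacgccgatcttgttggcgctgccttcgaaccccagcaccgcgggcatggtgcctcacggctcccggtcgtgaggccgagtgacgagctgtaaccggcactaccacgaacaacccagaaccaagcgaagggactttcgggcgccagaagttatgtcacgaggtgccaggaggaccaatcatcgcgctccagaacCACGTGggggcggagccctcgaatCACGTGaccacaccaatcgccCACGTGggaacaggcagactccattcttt
Fancg: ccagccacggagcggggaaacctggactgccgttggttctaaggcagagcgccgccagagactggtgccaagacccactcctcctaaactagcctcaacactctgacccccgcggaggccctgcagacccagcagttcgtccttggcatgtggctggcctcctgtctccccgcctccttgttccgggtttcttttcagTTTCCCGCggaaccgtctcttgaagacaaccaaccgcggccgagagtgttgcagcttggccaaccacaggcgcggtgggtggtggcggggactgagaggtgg
Msh6: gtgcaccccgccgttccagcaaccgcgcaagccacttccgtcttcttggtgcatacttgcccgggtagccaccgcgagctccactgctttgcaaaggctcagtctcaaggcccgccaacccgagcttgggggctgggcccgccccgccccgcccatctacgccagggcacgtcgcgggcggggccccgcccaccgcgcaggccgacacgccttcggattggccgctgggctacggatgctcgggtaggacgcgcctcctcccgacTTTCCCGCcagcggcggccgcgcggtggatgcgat
Lig1: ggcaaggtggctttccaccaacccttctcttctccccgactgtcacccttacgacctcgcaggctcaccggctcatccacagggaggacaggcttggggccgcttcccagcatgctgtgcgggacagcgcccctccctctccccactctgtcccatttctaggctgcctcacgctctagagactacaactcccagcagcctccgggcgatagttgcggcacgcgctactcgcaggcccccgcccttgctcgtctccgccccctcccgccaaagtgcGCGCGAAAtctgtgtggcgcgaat
RefSeq promoters were found for 35 of the 41 genes, 38 promoters in all. The E2F letters searched on both strands were TTTCCCGC, TTTCGCGC, TTTGCCGC and TTTGGCGC, and 6 of the 38 repair promoters held at least 1 of them (15.8%), against 744 of all 32851 promoters (2.26%). The 6 promoters belong to 5 of the 35 genes, Brca2, Fancg, Lig1, Msh6 and Rad51c, against 704 of all 27025 genes with promoters. The match began 52 bases before the start of Fancg, and 15 bases after the start of Msh6. The letters TTTGAA, read as a cell cycle homology region in many mitosis genes, were in 1 of the 38 promoters (2.63%, Ercc5), against 17.9% of all promoters. CACGTG, which reads the same on both strands and is bound by Myc and USF family factors, was looked for after the Apex1 sequence had been seen. It stood in the Apex1 promoter 3 times, the first 24 bases before the start, and 29 of all 32851 promoters (0.0883%) held it at least 3 times. The cut of 3 copies was also taken from Apex1, so that share is no test. At least 1 copy stood in 7 of the 38 repair promoters (18.4%), against 7.15% of all promoters. Those 7 belong to Apex1, Ercc6, Lig1, Lig3, Parp1, Parp2 and Rev1. These matches are letters in a window and not measured sites. The repair promoters and all promoters were not matched for base composition, so the shares may differ for that reason alone, which was not tested.

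Across the repair genes, few differences passed the test and most differences from Control were negative. Apex1 fell in Combination tumours, and Ddb2 fell with chemotherapy averaged over blockade. No repair gene rose in any of the comparisons made. Against Control, the median difference of the 40 tested genes was -0.53 in Combination, -0.13 in GC and -0.20 in ICB tumours, beside -0.29, 0.09 and -0.06 over all 12765 genes. Negative values were found for 37 of the 40 repair genes in Combination, 28 in GC and 32 in ICB tumours, against 67.0%, 41.9% and 59.1% of all genes. The 3 comparisons share the Control libraries, so they are not independent of each other. When libraries were rescaled by TMM, which sets the middle of the genes level, the median of all genes in Combination against Control became -0.04 and that of the repair genes -0.28, with 31 negative. With a hepatocyte score as covariate both medians turned positive, at 0.33 for all genes and 0.36 for the repair genes.

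**Figure D1:**
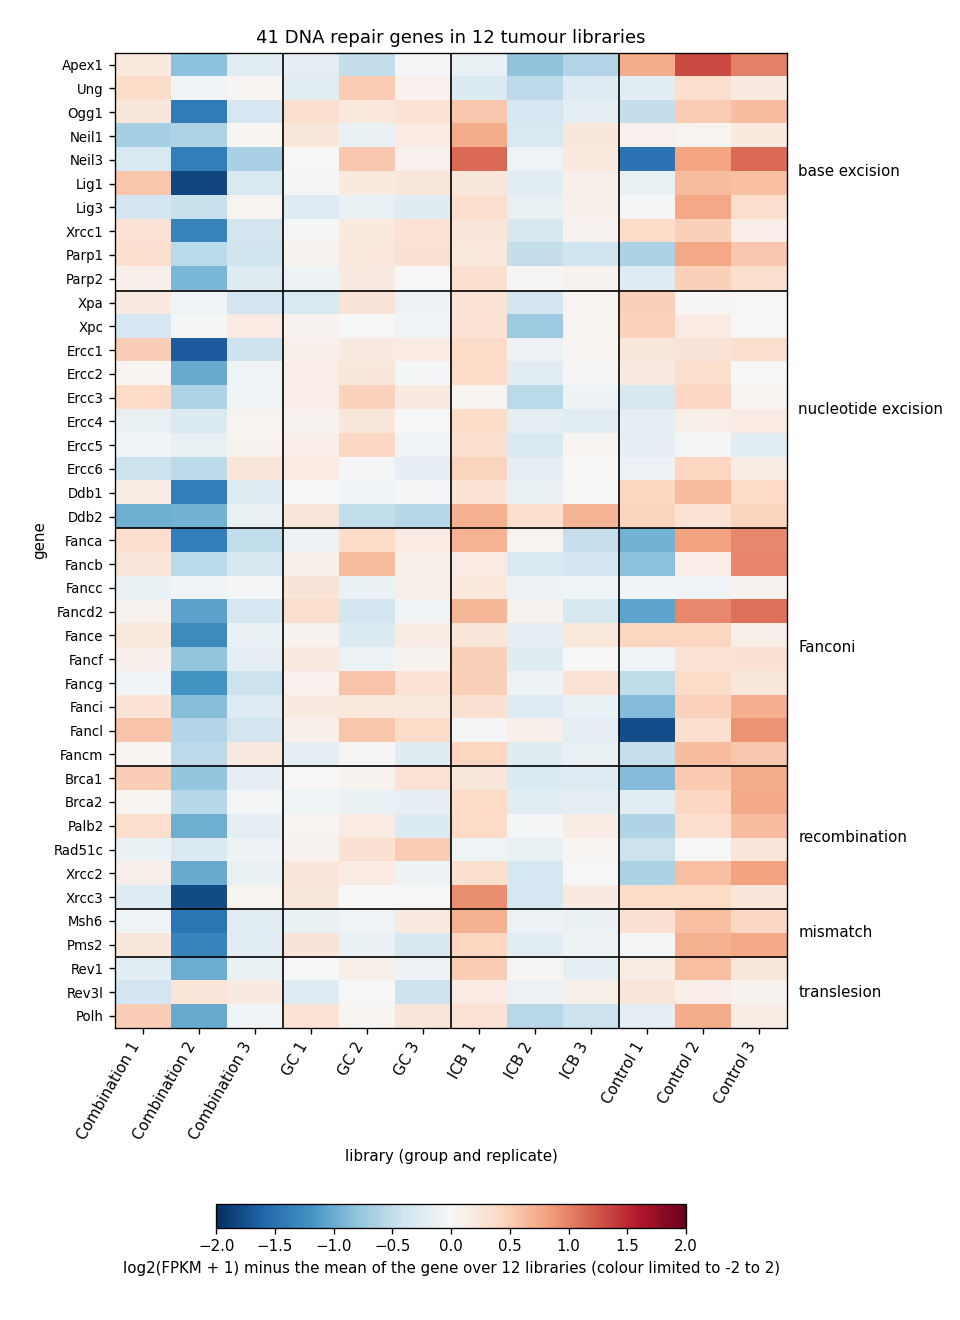
Level of the 41 repair genes (rows, by class) in the 12 libraries (columns), as log2(FPKM + 1) minus the mean of the gene over the libraries; blue is below and red above that mean. Apex1 is reddest in the 3 Control libraries, Combination replicate 2 is blue in most rows, and Control replicate 1 is blue in most Fanconi rows.

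Among the base excision genes, Apex1 stood apart. It encodes the main endonuclease that cuts at sites from which a damaged base has been removed, and it also acts as a redox factor for transcription factors. Apex1 had 29.9, 14.4 and 22.3 FPKM in Combination replicates 1, 2 and 3, 22.7, 18.5 and 25.3 FPKM in GC replicates 1, 2 and 3, 23.7, 14.6 and 17.1 FPKM in ICB replicates 1, 2 and 3, and 44.3, 66.6 and 53.8 FPKM in Control replicates 1, 2 and 3. All 9 treated libraries lay below all 3 Control libraries, which 175 of the 12765 genes also did (1.37%). Means were 22.2 ± 7.77 FPKM in Combination, 22.2 ± 3.45 FPKM in GC, 18.5 ± 4.69 FPKM in ICB and 54.9 ± 11.2 FPKM in Control tumours (SD, n = 3 each). The difference from Control was -1.31 ± 0.30 in Combination (limma, adjusted p = 0.0347), and Apex1 was the only repair gene to pass there, where 0.400% of all genes fell and 3.95% changed in either direction. It was -1.26 ± 0.30 in GC (limma, adjusted p = 0.172) and -1.53 ± 0.30 in ICB tumours (limma, unadjusted p = 0.000313, adjusted p = 1). Between Combination and GC tumours Apex1 differed by -0.04 ± 0.30, and between Combination and ICB tumours by 0.22 ± 0.30. The interaction, the difference of Combination from ICB minus that of GC from Control, was 1.49 ± 0.43 (limma, unadjusted p = 0.00477, adjusted p = 0.405).

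Hepatocyte genes were higher in every treated library than in every Control library, as Apex1 was lower, and with a hepatocyte score as covariate the Apex1 difference in Combination was -0.56 (limma, adjusted p = 0.678). Treatment and hepatocyte content cannot be told apart for Apex1, since both separate the same libraries. The call was also lost with only Combination and Control libraries in the model (limma, adjusted p = 0.265), and the adjusted p lay between 0.00442 and 0.129 when single libraries were left out. It missed the threshold without any 1 of the 3 Control, the 3 GC, ICB replicates 2 or 3, or Combination replicates 2 or 3.

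Apex1 (chr14:50924968-50927139, plus strand, GENCODE M21 on GRCm38) shares 877 of its 1422 exon bases (61.7%) with Tmem55b on the opposite strand, listed there as Pip4p1, which encodes a lysosomal phosphoinositide phosphatase. Whether counting used strand is not given in the sources used here, so reads of the pair may not be told apart. Tmem55b had 29.8, 14.8 and 20.1 FPKM in Combination, 25.1, 32.0 and 28.2 FPKM in GC, 28.5, 21.2 and 26.0 FPKM in ICB and 14.9, 15.7 and 17.6 FPKM in Control libraries, in replicate order. Its 3 GC and 3 ICB libraries lay above the Control libraries, and Combination replicate 2 lay below them, so in GC and ICB libraries the pair lay on opposite sides of Control. The differences of Tmem55b from Control were 0.35 ± 0.26 in Combination, 0.78 ± 0.26 in GC and 0.61 ± 0.26 in ICB tumours, with limma adjusted p = 0.376, 0.323 and 1 in that order.

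**Figure D2:**
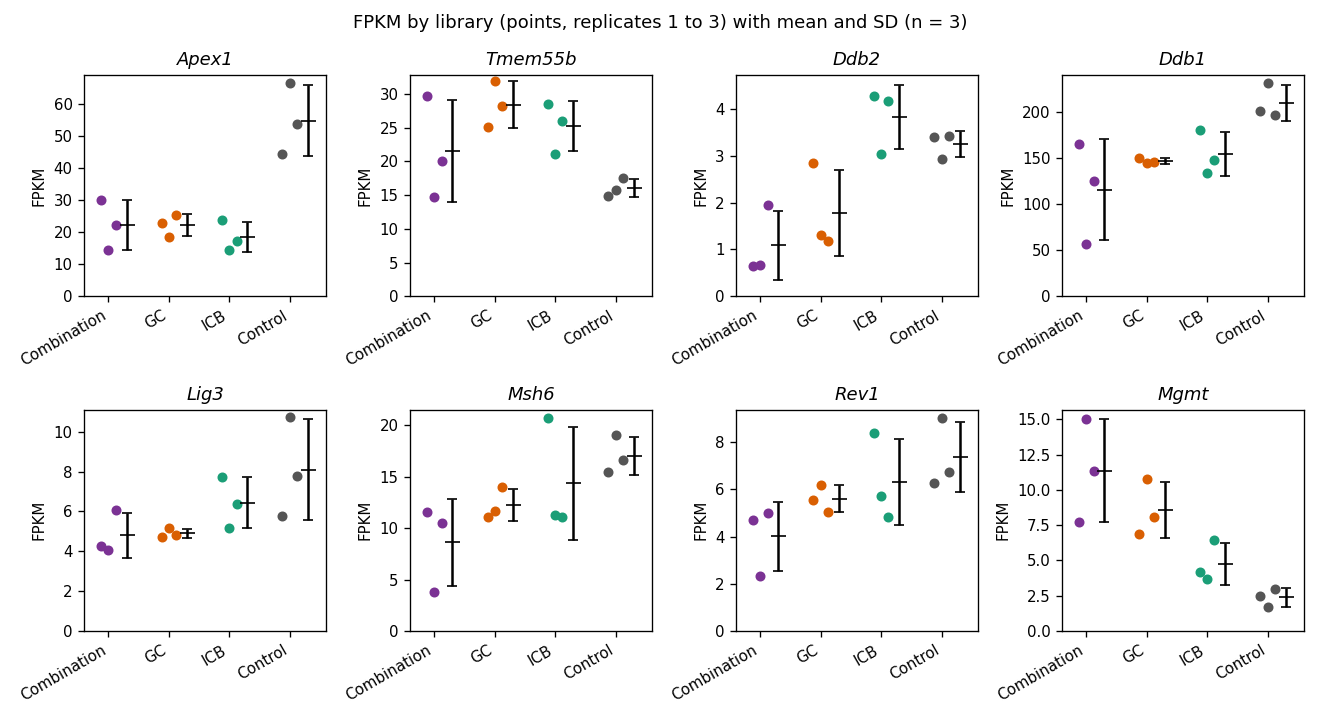
FPKM in each library (points, replicates 1 to 3 from left to right) with mean and SD (bars, n = 3) for 6 repair genes, for Tmem55b, which overlaps Apex1, and for Mgmt. Every treated library is below every Control library for Apex1 and Ddb1, and all 6 libraries with chemotherapy are below the other 6 for Ddb2.

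The other base excision genes did not pass the test in any comparison. Lig3, the ligase that seals the repaired nick, also in mitochondria, had 4.25, 4.05 and 6.09 FPKM in Combination, 4.7, 5.17 and 4.81 FPKM in GC, 7.75, 5.17 and 6.39 FPKM in ICB and 5.75, 10.8 and 7.78 FPKM in Control libraries. The GC libraries lay below the Control libraries and the Combination libraries overlapped them through replicate 3. Its difference from Control was -0.63 ± 0.25 in Combination (limma, adjusted p = 0.153) and -0.59 ± 0.25 in GC tumours (limma, adjusted p = 0.47), and 25.1% of its exon bases are shared with Rffl on the opposite strand. Xrcc1, the scaffold that holds Lig3 at the break, had 21.9, 6.49 and 13.6 FPKM in Combination, 17.5, 20.6 and 22.1 FPKM in GC, 21.4, 14.1 and 18.8 FPKM in ICB and 23.2, 25.3 and 19.7 FPKM in Control libraries. Combination replicates 2 and 3 were lowest and replicate 1 lay within the Control range, and the difference was -0.80 ± 0.35 (limma, adjusted p = 0.182).

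Of the glycosylases, which remove the damaged base, Ung acts on uracil and was the 1 repair gene whose Combination libraries all lay above the ICB libraries, with 7.3, 5.19 and 5.58 FPKM in Combination, 4.55, 8.14 and 5.82 FPKM in GC, 4.35, 3.49 and 4.4 FPKM in ICB and 4.5, 7.2 and 6.29 FPKM in Control libraries. The difference of Combination from ICB was 0.46 ± 0.25 (limma, adjusted p = 0.32), and 9.47% of all genes were separated in that direction. Neil1 and Neil3 act on oxidised bases, Neil3 also at crosslinks met by replication forks. Neil1 averaged 3.46 ± 1.29 FPKM in Combination, 5.2 ± 0.815 FPKM in GC, 6.07 ± 2.51 FPKM in ICB and 5.28 ± 0.305 FPKM in Control tumours (SD, n = 3 each). Its highest Combination library, at 4.94 FPKM, lay just below its lowest Control library, at 5.04 FPKM. The Neil1 difference of Combination from ICB was -0.64. Neil3 had 1.65, 0.261 and 1.09 FPKM in Combination, 2.31, 3.79 and 2.5 FPKM in GC, 6.24, 2.11 and 2.75 FPKM in ICB and 0.176, 4.69 and 6.19 FPKM in Control libraries, so Control replicate 1 was lowest of all while the other Control libraries were among the highest. The Combination libraries of Neil3 lay below both the GC and the ICB libraries. Ogg1, which removes oxidised guanine, averaged 5.9 ± 3.47 FPKM in Combination, 9.7 ± 0.416 FPKM in GC, 8.24 ± 3.19 FPKM in ICB and 9.83 ± 3.88 FPKM in Control tumours (SD, n = 3 each). Parp1 and Parp2, which sense strand breaks, averaged 20.3 ± 7.35 and 11.8 ± 4.28 FPKM in Combination, against 29.0 ± 13.1 and 17.2 ± 4.57 FPKM in Control tumours (SD, n = 3 each). Lig1, the replicative ligase that also serves repair, had 19.5, 2.95 and 10.4 FPKM in Combination, 12.6, 15.1 and 15.3 FPKM in GC, 15.3, 11.1 and 13.9 FPKM in ICB and 11.6, 20.8 and 20.2 FPKM in Control libraries, and the groups overlapped.

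In nucleotide excision repair the clearest gene was Ddb2, which recognises bulky lesions in chromatin together with Ddb1 and in human cells is a target of p53. Ddb2 had 0.648, 0.678 and 1.95 FPKM in Combination replicates 1, 2 and 3, 2.85, 1.32 and 1.18 FPKM in GC replicates 1, 2 and 3, 4.29, 3.05 and 4.19 FPKM in ICB replicates 1, 2 and 3, and 3.41, 2.94 and 3.44 FPKM in Control replicates 1, 2 and 3. Every library with chemotherapy lay below every library without it, which 166 of the 12765 genes also did (1.30%). Means were 1.09 ± 0.741 FPKM in Combination, 1.78 ± 0.924 FPKM in GC, 3.84 ± 0.687 FPKM in ICB and 3.26 ± 0.278 FPKM in Control tumours (SD, n = 3 each). With chemotherapy averaged over blockade, the mean of GC and Combination minus the mean of ICB and Control, the difference was -0.96 ± 0.22 (limma, adjusted p = 0.0408), and Ddb2 was the only repair gene to pass there, where 0.353% of all genes fell and 3.36% changed in either direction. Its difference was -1.26 ± 0.31 for Combination against ICB (limma, adjusted p = 0.0675) and -0.66 ± 0.31 for GC against Control (limma, adjusted p = 0.529). These 2 comparisons share no library, but the averaged difference is their mean, so they are not separate support for it. For Combination against Control the Ddb2 difference was -1.08 ± 0.31 (limma, adjusted p = 0.0774), for ICB against Control 0.18 ± 0.31, and the interaction was -0.59 ± 0.44 (limma, adjusted p = 0.702).

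The mean of the hepatocyte list on the log2(FPKM + 1) scale was 4.93 to 11.3 in Combination and 4.84 to 7.63 in GC, against 3.35 to 5.43 in ICB and 0.62 to 2.04 in Control libraries. With the hepatocyte score as covariate the Ddb2 difference was -1.02 and no longer passed (limma, adjusted p = 0.152), and beyond this the part of hepatocyte content in it was not tested. With replicate numbers as a block in place of that score the adjusted p was 0.0606 (limma). The Ddb2 call with chemotherapy was lost without any 1 of the 3 Control or 3 ICB libraries, GC replicates 2 or 3, or Combination replicate 2, with adjusted p up to 0.122 (limma). Ddb2 (chr2:91211572-91236982, minus strand, GRCm38) shares 23.8% of its exon bases with Acp2 on the opposite strand, a lysosomal acid phosphatase that had 13.0, 12.8 and 12.5 FPKM in Combination, 13.5, 20.95 and 11.6 FPKM in GC, 16.1, 10.4 and 13.5 FPKM in ICB and 7.66, 16.7 and 14.6 FPKM in Control libraries, with chemotherapy and other libraries overlapping. Of 19 tested p53 target genes, 1 rose and none fell with chemotherapy averaged over blockade (Fas, a death receptor, 1.48 ± 0.26; limma, adjusted p = 0.0133). Of all 12765 genes, 384 rose and 45 fell there. Against Control, the median difference of the 19 genes was 0.53 in GC, -0.08 in ICB and -0.16 in Combination tumours. Over all genes it was 0.09, -0.06 and -0.29 in that order. Fas had 5.85, 19.4 and 7.16 FPKM in Combination, 3.79, 5.9 and 5.43 FPKM in GC, 2.18, 2.57 and 2.55 FPKM in ICB and 0.866, 1.45 and 1.84 FPKM in Control libraries, and all 6 libraries with chemotherapy lay above the other 6, as they did for 2.75% of all genes. Its highest library, Combination replicate 2, was also the highest in hepatocyte genes, and the part of hepatocyte content in the Fas difference was not tested. Cdkn1a, the p53-induced cell cycle inhibitor, had 59.0, 39.6 and 50.2 FPKM in Combination, 71.8, 100 and 83.5 FPKM in GC, 60.2, 58.2 and 76.9 FPKM in ICB and 110.0, 37.9 and 34.7 FPKM in Control libraries, and Mdm2, which degrades p53, had 20.1, 10.1 and 22.6 FPKM in Combination, 24.7, 24.7 and 20.7 FPKM in GC, 17.9, 19.7 and 18.6 FPKM in ICB and 21.7, 21.8 and 16.4 FPKM in Control libraries.

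Ddb1, the partner of Ddb2 and an adaptor of the Cul4 ubiquitin ligases, had the highest level of all repair genes. It had 165, 56.5 and 125 FPKM in Combination, 150.0, 144 and 145 FPKM in GC, 180.3, 134 and 148 FPKM in ICB and 200.3, 231 and 196 FPKM in Control libraries. All 9 treated libraries lay below the 3 Control libraries, and Ddb1 and Apex1 were the 2 repair genes with that order. The difference of Ddb1 from Control was -0.98 ± 0.35 in Combination (limma, adjusted p = 0.117), -0.51 ± 0.35 in GC (limma, adjusted p = 0.697) and -0.45 ± 0.35 in ICB tumours (limma, adjusted p = 1). With the hepatocyte score as covariate the Combination difference was 0.13 (limma, adjusted p = 0.943).

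Ercc1, the DNA-binding partner in the nuclease that cuts on the 5′ side of a platinum adduct, had 34.5, 6.97 and 17.9 FPKM in Combination, 26.1, 27.5 and 27.3 FPKM in GC, 32.1, 22.4 and 24.95 FPKM in ICB and 28.5, 29.4 and 31.1 FPKM in Control libraries. Combination replicates 1 and 2 were the highest and the lowest of all 12 libraries, and the GC libraries lay just below the Control libraries. Its difference from Control was -0.81 ± 0.42 in Combination (limma, adjusted p = 0.237) and -0.13 ± 0.42 in GC tumours (limma, adjusted p = 0.963). Ercc4, which holds the catalytic site of the same nuclease, averaged 1.92 ± 0.355 FPKM in Combination, 2.4 ± 0.294 FPKM in GC, 2.21 ± 0.756 FPKM in ICB and 2.25 ± 0.413 FPKM in Control tumours (SD, n = 3 each). Xpa, which positions the complex, and Xpc, which finds the lesion, differed from Control by no more than -0.33 ± 0.28 in any group. The helicases Ercc2 and Ercc3 of the transcription factor TFIIH averaged 7.63 ± 3.00 and 12.2 ± 4.51 FPKM in Combination, against 10.9 ± 1.46 and 13.3 ± 3.65 FPKM in Control tumours (SD, n = 3 each). Ercc2 shares 42.7% of its exon bases with other genes. Ercc5, the nuclease on the 3′ side, was the 1 nucleotide excision gene with a positive difference in Combination tumours (0.10 ± 0.22), and Ercc6, which acts where RNA polymerase stalls, had -0.38 ± 0.29.

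**Figure D3:**
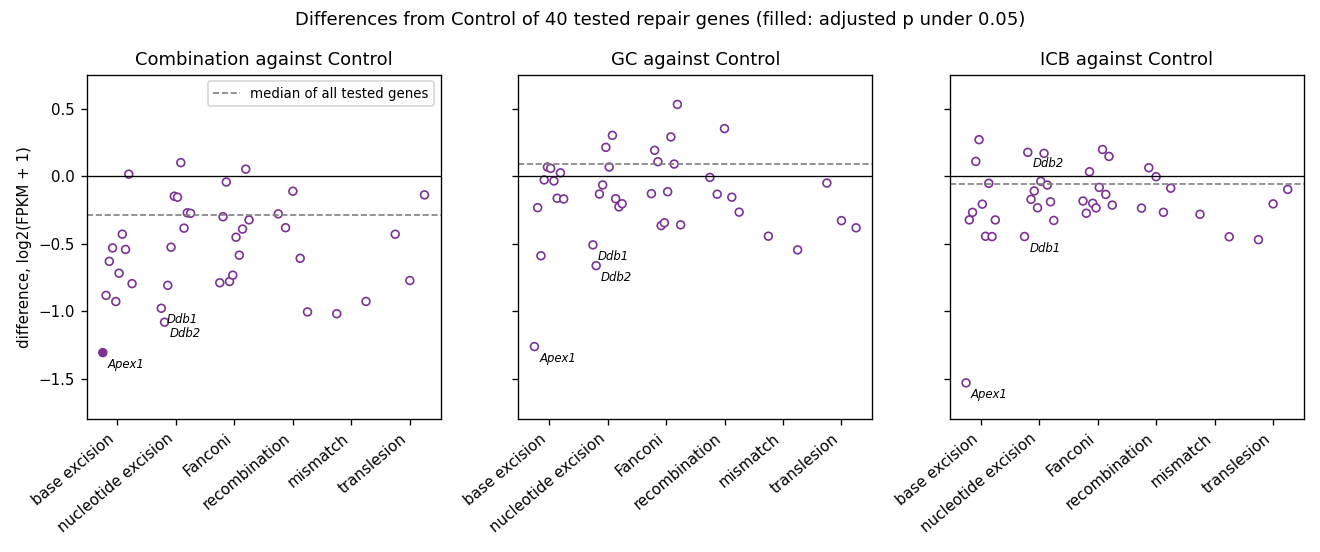
Difference from Control on the log2(FPKM + 1) scale of the 40 tested repair genes (points, by class) in Combination, GC and ICB tumours; filled points passed adjusted p under 0.05 and the dashed line is the median of all tested genes. Apex1 in Combination is the only filled point, and it is the lowest point in each panel.

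The Fanconi genes varied widely within the Control group, and none passed the test in any comparison. The highest Control library was a median 5.54 times the lowest over the 10 Fanconi genes and 4.02 times over the 5 tested recombination genes, against 1.36 times over the 10 nucleotide excision genes and 1.66 times over all genes above 0 in the 3 Control libraries. More than 3-fold spread was seen for 6 of 10 Fanconi and 3 of 5 recombination genes, 0 of 10 nucleotide excision genes and 15.5% of all genes. Control replicate 1 was the low library: it was the lowest of the Control libraries for 8 of 10 Fanconi genes, and likewise for 8 of 10 base excision genes and for 57.0% of all genes. The mitosis genes had the same low library, with all 20 spread over 3-fold. With a mitosis gene score as covariate, the median difference of all 40 repair genes in Combination against Control was -0.35, beside -0.16 over all genes.

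The Fanconi core complex places ubiquitin on Fancd2 and Fanci. Fancd2 had 1.54, 0.157 and 0.91 FPKM in Combination, 2.08, 0.881 and 1.29 FPKM in GC, 2.82, 1.53 and 0.938 FPKM in ICB and 0.166, 3.7 and 4.18 FPKM in Control libraries. Control replicates 2 and 3 were the highest libraries and Control replicate 1 and Combination replicate 2 the lowest, so the groups overlapped. Fanci, paired with Fancd2 at the crosslink, had 1.43, 0.115 and 0.678 FPKM in Combination, 1.29, 1.33 and 1.31 FPKM in GC, 1.5, 0.693 and 0.831 FPKM in ICB and 0.108, 1.77 and 2.34 FPKM in Control libraries, with the same 2 low libraries. Fancl, the ubiquitin ligase of the core complex, had 8.13, 3.11 and 3.78 FPKM in Combination, 5.6, 8.11 and 7.08 FPKM in GC, 5.01, 5.66 and 4.45 FPKM in ICB and 0.808, 6.72 and 10.5 FPKM in Control libraries, with Control replicate 1 lowest and Control replicate 3 highest. Fancd2 and Fancl were named after their values were seen.

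Fancg, a core complex subunit, had 3.23, 0.933 and 2.28 FPKM in Combination, 3.7, 5.54 and 4.4 FPKM in GC, 5.13, 3.11 and 4.42 FPKM in ICB and 2.1, 4.67 and 4.15 FPKM in Control libraries. The Combination libraries lay below all GC libraries, with a difference of -0.88 ± 0.34 (limma, adjusted p = 0.277), and replicate 1 of Combination overlapped ICB replicate 2 (-0.78 ± 0.34; limma, adjusted p = 0.226). The interaction of Fancg was -1.07 ± 0.48 (limma, unadjusted p = 0.0468, adjusted p = 0.609). Fance, which binds Fancd2 for the core complex, had 12.9, 3.96 and 9.96 FPKM in Combination, 11.7, 9.01 and 12.3 FPKM in GC, 13.3, 9.65 and 13.0 FPKM in ICB and 15.2, 15.3 and 12.1 FPKM in Control libraries. Combination replicate 2 was lowest and replicate 1 within the Control range, and the difference was -0.73 ± 0.34 (limma, adjusted p = 0.195). Fancf, an adaptor of the complex, had 2.95, 1.11 and 2.23 FPKM in Combination, 3.13, 2.43 and 2.83 FPKM in GC, 4.09, 2.1 and 2.68 FPKM in ICB and 2.44, 3.46 and 3.51 FPKM in Control libraries, with Combination replicate 2 lowest. Fancc, another subunit, was the lowest repair gene in Control tumours among those tested, with 0.884, 0.986 and 1.04 FPKM in Combination, 1.45, 0.891 and 1.25 FPKM in GC, 1.38, 0.927 and 0.952 FPKM in ICB and 0.98, 0.955 and 1.16 FPKM in Control libraries. Fanca, Fancb and Fancm, which build or anchor the core complex, differed from Control by -0.79 ± 0.55, -0.30 ± 0.43 and -0.32 ± 0.37 in Combination tumours.

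**Figure D4:**
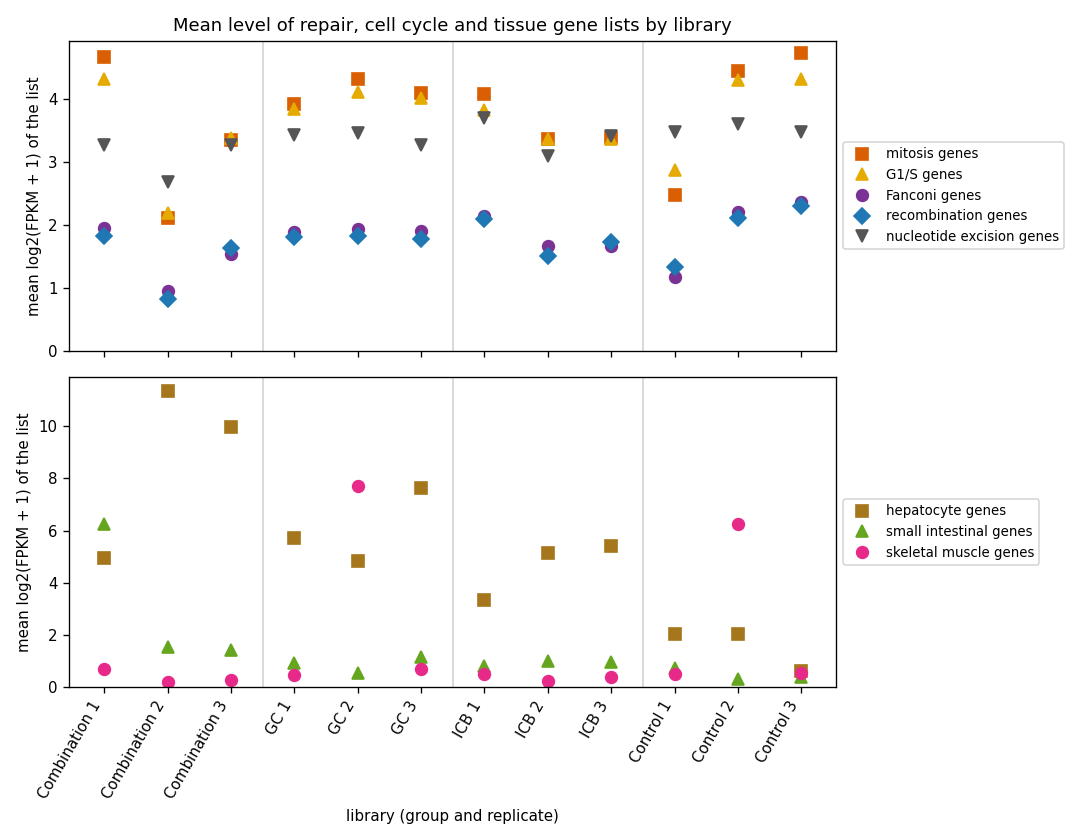
Mean log2(FPKM + 1) of gene lists in each library, above for mitosis, G1/S, Fanconi, recombination and nucleotide excision genes and below for hepatocyte, small intestinal and skeletal muscle genes. Fanconi and recombination genes are lowest in Combination replicate 2 and Control replicate 1, as mitosis and G1/S genes are, while nucleotide excision genes are level across the Control libraries.

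The recombination genes followed the same libraries. The mean of the 6 genes on the log2(FPKM + 1) scale was 0.83 in Combination replicate 2 and 1.33 in Control replicate 1, against 1.5 to 2.30 in the other 10 libraries, and no gene passed the test. Xrcc3, which acts in the repair of double-strand breaks, had 6.51, 1.59 and 8.38 FPKM in Combination, 9.54, 8.01 and 7.93 FPKM in GC, 16.1, 6.03 and 9.2 FPKM in ICB and 10.6, 10.9 and 9.67 FPKM in Control libraries. Both the Combination and the GC libraries lay below the Control libraries while the ICB libraries spread around them, and the difference from Control was -1.005 ± 0.44 in Combination (limma, adjusted p = 0.179). Rad51c, which forms a complex with Xrcc3, had 1.3, 1.07 and 1.35 FPKM in Combination, 1.63, 2.11 and 2.59 FPKM in GC, 1.36, 1.28 and 1.6 FPKM in ICB and 0.874, 1.53 and 1.98 FPKM in Control libraries. The Combination libraries lay below the GC libraries (-0.46 ± 0.27; limma, adjusted p = 0.338). Xrcc2, of the same gene family as Xrcc3, had 2.85, 0.789 and 2.22 FPKM in Combination, 3.24, 3.02 and 2.33 FPKM in GC, 3.45, 1.79 and 2.61 FPKM in ICB and 1.3, 4.46 and 5.23 FPKM in Control libraries, with the lowest values in Combination replicate 2 and Control replicate 1. Brca1, which starts end resection and recruits Palb2, had 3.78, 0.977 and 2.02 FPKM in Combination, 2.39, 2.56 and 3.13 FPKM in GC, 2.96, 1.78 and 1.83 FPKM in ICB and 0.862, 3.85 and 4.63 FPKM in Control libraries. Palb2, which bridges Brca1 and Brca2, averaged 1.33 ± 1.00 FPKM in Combination against 2.01 ± 1.17 FPKM in Control tumours (SD, n = 3 each). Brca2, which acts at broken and stalled DNA ends, was the 1 gene not tested, with 0.938, 0.264 and 0.848 FPKM in Combination, 0.757, 0.701 and 0.672 FPKM in GC, 1.46, 0.603 and 0.663 FPKM in ICB and 0.596, 1.5 and 2.17 FPKM in Control libraries.

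Both mismatch repair genes had their lowest library in Combination replicate 2. Msh6, which recognises mismatched bases, had 11.6, 3.81 and 10.5 FPKM in Combination, 11.1, 11.6 and 14.0 FPKM in GC, 20.7, 11.3 and 11.1 FPKM in ICB and 15.4, 19.0 and 16.6 FPKM in Control libraries. The Combination and GC libraries lay below all Control libraries, ICB replicate 1 was the highest of all, and the difference from Control was -1.02 ± 0.36 in Combination (limma, adjusted p = 0.117). With the hepatocyte score as covariate that difference was 0.0053 (limma, adjusted p = 0.999). Pms2, an endonuclease that nicks the new strand, had 5.38, 1.16 and 3.71 FPKM in Combination, 5.53, 3.99 and 3.4 FPKM in GC, 6.35, 3.7 and 4.08 FPKM in ICB and 4.31, 7.94 and 8.41 FPKM in Control libraries, and its difference in Combination was -0.93 ± 0.39 (limma, adjusted p = 0.169).

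The translesion genes did not pass the test either. Rev1, which inserts a base opposite the lesion and gathers the other polymerases, had 4.69, 2.33 and 4.997 FPKM in Combination, 5.55, 6.19 and 5.06 FPKM in GC, 8.38, 5.74 and 4.85 FPKM in ICB and 6.28, 9.05 and 6.74 FPKM in Control libraries. The Combination libraries lay below both the GC and the Control libraries, with a difference from Control of -0.77 ± 0.28 (limma, adjusted p = 0.124), and 26.6% of its exon bases are shared with Eif5b on the opposite strand. Rev3l, the catalytic subunit of polymerase zeta that extends past the lesion, had 0.604, 1.47 and 1.35 FPKM in Combination, 0.737, 1.08 and 0.557 FPKM in GC, 1.33, 0.921 and 1.27 FPKM in ICB and 1.47, 1.29 and 1.19 FPKM in Control libraries. Its GC libraries lay below the Control libraries (-0.38 ± 0.29; limma, adjusted p = 0.734), and the Combination libraries overlapped both. Polh, polymerase eta, which copies past platinum adducts, had 6.97, 1.8 and 4.43 FPKM in Combination, 5.83, 4.83 and 5.7 FPKM in GC, 5.94, 2.85 and 3.18 FPKM in ICB and 3.996, 8.5 and 5.26 FPKM in Control libraries, and the groups overlapped.

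Counts of repair genes whose libraries did not overlap were set beside the same counts over all genes. Below Control in every library lay 7 of 40 repair genes in Combination (17.5%), 9 in GC (22.5%) and 3 in ICB tumours (7.5%), against 13.2%, 9.29% and 4.67% of all genes. In Combination tumours these were Apex1, Ddb1, Ddb2, Msh6, Neil1, Rev1 and Xrcc3. In GC tumours they were Apex1, Ddb1, Ddb2, Ercc1, Lig3, Msh6, Rev1, Rev3l and Xrcc3, and in ICB tumours Apex1, Ddb1 and Ung. No repair gene lay above Control in every library of Combination, GC or ICB tumours, where 9.74%, 18.6% and 4.65% of all genes did. Combination libraries lay below all GC libraries for 4 repair genes (10.0%; Fancg, Neil3, Rad51c and Rev1) and below all ICB libraries for 2 (5.0%; Ddb2 and Neil3), against 14.2% and 10.1% of all genes. At an unadjusted p under 0.05, 9 repair genes were lower than Control in Combination, 2 in GC and 1 in ICB tumours, where 14.6%, 1.66% and 0.454% of all genes were.

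With adjusted p, 0 repair genes passed in GC against Control, where 0.00783% of all genes did, and 0 in ICB against Control, where 0% did. There were also 0 in Combination against GC, where 0.666% of all genes passed, 0 in Combination against ICB, where 2.24% passed, and 0 for the interaction, where 0.0157% passed. In these last 3 comparisons 1, 3 and 2 repair genes were under an unadjusted p of 0.05 in limma, where 16.5%, 20.5% and 8.09% of all genes were. Combination replicate 2 was the lowest of the 12 libraries for 25 of the 40 repair genes (62.5%) and for 56.1% of all genes, so its position was close to that of genes in general.

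Other DNA repair and damage response genes were read from a list of 72 genes outside the 41, of which 69 were tested. Against Control in Combination tumours 1 rose and 0 fell, where 453 of all 12765 genes rose and 51 fell. The median difference was -0.48, beside -0.53 for the 40 repair genes and -0.29 over all genes. The gene that rose was Mgmt (chr7:136894614-137130266, plus strand, GRCm38), which takes alkyl groups off guanine in a single step. Mgmt had 7.75, 15.03 and 11.3 FPKM in Combination, 6.88, 10.8 and 8.08 FPKM in GC, 4.18, 3.65 and 6.43 FPKM in ICB and 2.47, 1.69 and 3.00 FPKM in Control libraries. All 9 treated libraries lay above the Control libraries, which 298 of the 12765 genes also did (2.33%), and the difference from Control was 1.85 ± 0.29 in Combination (limma, adjusted p = 0.00505) and 1.5 ± 0.29 in GC tumours (limma, adjusted p = 0.137). With chemotherapy averaged over blockade it was 1.30 ± 0.21 (limma, adjusted p = 0.00736). Hepatocyte genes, at a mean of 4.93 to 11.3 in Combination, 4.84 to 7.63 in GC, 3.35 to 5.43 in ICB and 0.62 to 2.04 in Control libraries on the log2(FPKM + 1) scale, also lay above Control in every treated library. With a hepatocyte score as covariate the Combination difference of Mgmt was 1.27 (limma, adjusted p = 0.346).

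The proliferation genes did not pass the test in Combination against Control: 0 of 20 mitosis and 0 of 20 G1/S genes were called, with medians of -0.53 and -0.51. Of all genes 3.95% were called there, and their median was -0.29 over all 12765 tested. Mki67, the common proliferation marker, had 15.6, 2.65 and 6.49 FPKM in Combination, 9.11, 15.8 and 10.3 FPKM in GC, 13.1, 5.14 and 6.64 FPKM in ICB and 1.84, 16.5 and 20.5 FPKM in Control libraries, and Mcm2, a subunit of the replicative helicase, had 32.9, 4.37 and 14.5 FPKM in Combination, 21.5, 29.3 and 27.4 FPKM in GC, 21.1, 18.5 and 16.6 FPKM in ICB and 13.9, 31.9 and 31.1 FPKM in Control libraries. Both were low in Combination replicate 2 and Control replicate 1, the libraries in which Fancd2 and Fanci were lowest. Without those 2 libraries, chosen after seeing the data, 0 repair genes passed in Combination against Control, and the median difference of the repair genes was -0.46, beside -0.13 over all genes.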

How the data were processed

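RNA had been taken from 12 tumours with Qiagen kits and made into stranded libraries, per the labels' protocols. Samples were placed in 4 groups of 3 by their titles. The authors deposited FPKM, with each gene symbol given once per library (24421 symbols, 5749 at 0 in all libraries), with library totals of 547146 to 660067 FPKM. The tools HISAT2, HTSeq, SAMtools, cutadapt and FastQC and the mm10 build are named, per the submitters' processing notes. Versions, the step that made FPKM and the use of strand in counting are not given in the sources used here. Low values in 66 pairs of libraries showed no whole-read steps (at most 17.3% of genes in 1 bin), so depth is unknown and no count model was used.

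A limma 3.58.1 model (R 4.3.3) was fitted to log2(FPKM + 1) with 4 group means over the 12 libraries, 8 residual degrees of freedom, empirical Bayes with intensity trend, a filter of mean 1 FPKM, and Benjamini-Hochberg adjustment with a threshold of 0.05 over 12765 genes. The script was checked on simulated data. The 7 comparisons were each treatment against Control, Combination against each single treatment, chemotherapy averaged over blockade, and the interaction. The repair genes, lists and tests were chosen with earlier results of these data known. Genes with every library given were those called in any comparison, each class filled to 3 by smallest unadjusted p, the 3 highest and 3 lowest in Control, up to 3 called genes of the other repair list, and Mki67, Mcm2, Cdkn1a and Mdm2. Neil3, Fancd2, Fancl, Brca1, Brca2, Ung, Lig1, Fas, Tmem55b and Acp2 were added after their values were seen. Exon overlaps come from GENCODE M21 (GRCm38), where 24 of the 41 genes share exon bases with another gene, and 4 of them over 25%. Replicates carry the numbers in their titles; the description field numbers them otherwise. Deviations of libraries with the same title number correlated between -0.24 and 0.42 over 18 pairs, 8 of them over 0.1. Pairs with different numbers ran from -0.45 to 0.43, so pairing by title number was not apparent. Pairing by the numbers of the description field was not tested. Alternatives were a pseudocount of 0.1, no filter, TMM scaling, quantile normalization, no trend, hepatocyte and proliferation scores as covariates, a replicate block, only the compared groups, and leaving out single libraries or the muscle-rich pair.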

Additional observations from a re-analysis of the deposited data

How the results depend on the processing

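For 27 differences of single genes, 607 of 613 values over 23 alternatives kept their direction. All 27 were followed because their unadjusted p was under 0.05 in limma as reported, so they were large beside their error from the start. Part of this agreement was fixed in advance. A difference cannot change with no filter, no trend, the replicate block, only the compared groups, or without a library of a group not compared. The 6 values that reversed did so with the hepatocyte covariate: in Combination against Control Ddb1 (0.13), Msh6 (0.0053), Pms2 (0.52), Xrcc1 (0.35) and Xrcc3 (0.11), and with chemotherapy averaged over blockade Msh6 (0.022). The cause was not tested. Over the 40 tested repair genes, that covariate gave 10 negative differences in Combination, 7 in GC and 7 in ICB against Control, where 37, 28 and 32 were negative as reported. The repair genes called in Combination against Control were 1 as reported, 5 with quantile normalization, and 0 with the hepatocyte covariate, with only the compared groups, without the muscle-rich pair (GC replicate 2 and Control replicate 2), and without Control replicate 1 and Combination replicate 2, chosen after seeing the data. Leaving out single libraries gave 0 to 8, with 8 without Combination replicate 1 (Apex1, Ddb1, Ercc1, Fance, Lig1, Msh6, Pms2 and Xrcc1). With chemotherapy averaged over blockade the count was 1 as reported, 5 with quantile normalization, and 0 with no filter, the hepatocyte covariate, the replicate block, without the muscle-rich pair and without Control replicate 1 and Combination replicate 2, and 0 to 1 without single libraries. In GC against Control it was 0, 1 with the proliferation covariate (Apex1) and 0 to 1 without single libraries. In Combination against ICB it was 0, 1 with quantile normalization, 1 with the proliferation covariate (Ddb2) and 0 to 2 without single libraries, and in Combination against GC 0 to 3, with 3 without Combination replicate 1 (Ercc1, Fancg and Xrcc1). ICB against Control and the interaction gave 0 under every alternative run. With the replicate block Apex1 in Combination against Control had a limma adjusted p of 0.0481 and Ddb2 with chemotherapy 0.0606. The block used the title numbers, and no label says that these pair the libraries. The adjusted p (limma) of Apex1 in Combination ran from 0.00442 to 0.678, and that of Ddb2 with chemotherapy from 0.0213 to 0.172. With 3 libraries a group and unknown depth, the counting error of genes near 1 FPKM, such as Fancc, Rev3l and Fanci, is not known. The same holds for Ddb2, which was called with chemotherapy at 0.648 to 2.85 FPKM in the GC and Combination libraries.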
